A study of Mus musculus with 96 samples.

Results

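Ribosome biogenesis factors are the nucleolar proteins that transcribe ribosomal RNA, cut and modify the transcript, and assemble it with ribosomal proteins into the subunits of the ribosome. They were chosen here by a rule on gene names, with earlier results of these data known. The members were all genes whose symbol has Utp, Nop, Rrp or Nol followed by a digit, together with Noc2l, Noc3l, Noc4l, the RNA polymerase I genes Polr1a to Polr1e, Bop1, Pes1, Ncl, Npm1 and Fbl. This gave 49 of the 19836 genes measured. At least 30 reads over all cells were found for 47 members and for 15239 genes in all, and these entered the comparisons. Nol3 had 1 read, in 1 yolk sac cell, and Nol4 had 28 reads, all from AGM cell 8, so both stayed under that minimum. Nol3, Nol4 and Nol4l match by name but are not known as ribosome factors.

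The data were RNA sequencing libraries of 96 single cells from C57BL/6 mouse embryos, sorted as haematopoietic stem cells (HSCs) or as their precursors, the pre-HSCs. At E11.5, 48 pre-HSCs came from the aorta-gonad-mesonephros (AGM) region and 16 from the yolk sac, both with the gate Ter119-CD11b-CD144+c-kit+EPCR+. HSCs of the fetal liver numbered 16 at E12.5, with the gate Ter119-Sca-1+c-kit+EPCR+, and 16 at E14.5, with the gate Ter119-Sca-1+c-kit+CD48-CD150+. Between the E11.5 tissues and the liver, tissue, age and gate changed together and cannot be told apart. Between the E12.5 and E14.5 liver groups, age and gate changed together and cannot be told apart either. Since no animal or litter is named for any cell, a group counted as 1 sample. No difference below has a replicate check, and no test was made. Values are reads of a gene in every 1000000 reads (CPM), either in 1 cell or pooled over a group. Intervals are 95% and cover counting error only, since amplified reads without molecular identifiers are not independent molecules.

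Single cells held 250235 to 1926882 reads, and the median number of genes detected was 5522.5 in AGM, 5349.5 in yolk sac, 4036 in the E12.5 and 4839 in the E14.5 liver cells. All 8 haematopoietic markers on the list had reads in every group. Of 8 endothelial markers, Kdr was at 0 reads in E12.5 liver, and Cldn5 and Sox17 were at 0 reads in E14.5 liver. E12.5 cell 8 stood apart, with 250235 reads, 1011 genes and the highest summed macrophage and erythroid markers of its group (13667 and 10067 CPM). Globin genes took 14.9%, 12.9%, 4.42% and 23.1% of the reads of E14.5 cells 3, 8, 13 and 16, and at most 0.151% in the other 12. AGM cells also differed by their label number: cells 1 to 16 had a median of 6572 genes, cells 17 to 32 had 5483.5 and cells 33 to 48 had 4493.5. The labels do not say what the numbers stand for.

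RNA polymerase I makes the long precursor of the 18S, 5.8S and 28S RNAs, and its output sets the pace of ribosome production. The small subunit processome, built largely from Utp proteins, folds and cleaves the 18S end of that precursor, while factors such as Pes1 and Bop1 process the part that enters the large subunit. Fbl, Nop56 and Nop58 form the core of the box C/D particles that methylate ribosomal RNA, and Nop10 belongs to the box H/ACA particles that make pseudouridine. The transcription factor Myc is known to raise many of these genes in growing cells, through binding sites that include the E-box CACGTG. Fetal HSCs divide, and HSCs are known for keeping protein synthesis low compared with other blood progenitors.

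Promoter sequences of the members were searched for this E-box, because the design pairs the members with Myc. RefSeq promoters (GRCm38.p6) were matched for 38 of the 47 members with enough reads, each with 250 bases before the gene start and 50 after it. The letters CACGTG, which read the same on both strands, were found in 8 of 38 windows (21.1%), against 1263 of 10979 genes with a promoter and enough reads (11.504%). In the 250 bases before the start they were found in 5 of 38 (13.2%), against 9.67% of all genes. The related letters CACGCG, searched on both strands, were in 34.2% of the members' windows and 19.1% of all, but before the start in 15.8% and 15.7%. The next lines give the 100 bases before the start of Nop2, Nol11 and Utp18, 3 members with an E-box there (in capitals), and of Polr1b, the member with the largest yolk sac to AGM ratio, which has none in its window. They lie at chr6:125131783-125131882 (plus strand), chr11:107189382-107189481 (minus), chr11:93885767-93885866 (minus) and chr2:129100896-129100995 (plus).
Nop2: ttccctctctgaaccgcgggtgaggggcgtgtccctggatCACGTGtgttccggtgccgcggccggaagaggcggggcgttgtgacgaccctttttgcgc
Nol11: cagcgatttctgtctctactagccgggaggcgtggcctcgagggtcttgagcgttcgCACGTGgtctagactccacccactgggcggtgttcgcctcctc
Utp18: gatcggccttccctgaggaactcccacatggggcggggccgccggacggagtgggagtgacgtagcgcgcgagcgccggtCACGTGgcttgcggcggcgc
Polr1b: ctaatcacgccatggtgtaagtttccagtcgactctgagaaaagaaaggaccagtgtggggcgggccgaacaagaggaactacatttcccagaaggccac
The E-box begins 60 bases before the start in Nop2, 43 in Nol11 and 20 in Utp18. A match is a description of the letters and not of binding.

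The level of the members as a whole was highest in yolk sac pre-HSCs. Members took 0.976% of all reads in AGM, 1.21% in yolk sac, 0.905% in the E12.5 and 0.846% in the E14.5 liver. In each cell a module mean was computed as the mean of log2(CPM + 1) over the 49 members. Its lowest, median and highest cells were 2.57, 4.57 and 6.19 in AGM and 2.17, 5.57 and 6.57 in yolk sac. In E12.5 liver they were 0.593 (cell 8), 3.84 and 6.06, and in E14.5 liver 2.17, 3.99 and 5.29. The groups overlapped, but 12 of 16 yolk sac cells lay above the AGM median and 6 of 48 AGM cells lay above the yolk sac median. Of the liver cells, 0 of 16 at E14.5 and 1 of 16 at E12.5 lay above the yolk sac median. Above the AGM median were 3 of 16 cells at E12.5 and 6 of 16 at E14.5.

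**Figure D1:**
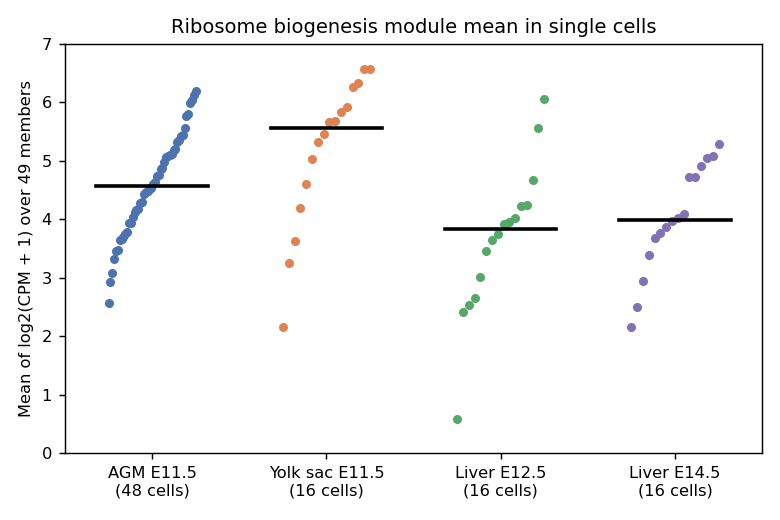
Each point is 1 cell, with the mean of log2(CPM + 1) over the 49 members on the y axis, and the black line is the median of the group. Yolk sac cells centre at 5.57, AGM cells at 4.57, and the liver cells at 3.84 (E12.5) and 3.99 (E14.5), with wide overlap.

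The order of yolk sac first, AGM next and liver last held when every cell was thinned to 500000 reads (medians 5.54, 4.53, 3.88 and 3.96, with 1 AGM and 1 E12.5 cell too shallow to enter). Thinning evened out reads but not genes detected. Yolk sac cells then had a median of 5103.5 genes and AGM cells 5299, against 3816 (E12.5) and 4547 (E14.5) for liver cells. The module mean went with genes detected, as given below, so whether the lower liver values follow detection was not tested by thinning. Without E12.5 cell 8 the E12.5 median of the module mean, with all reads, was 3.93. The 4 E14.5 cells with globin reads had module means of 2.50 to 4.02, and without them the E14.5 median was 4.40, close to the AGM value. The AGM level depended on the cells taken. Its median was 5.16 in cells 1 to 16, 4.59 in cells 17 to 32 and 3.94 in cells 33 to 48, following the number of genes detected. The part of these cells in the group differences was not tested.

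Members detected in a cell followed the same order. The median cell had a read of 32 of the 49 members in AGM, 38 in yolk sac, 25.5 in the E12.5 and 28.5 in the E14.5 liver. Across the cells of a group, the module mean went with the number of genes detected, with a Pearson r of 0.63 in AGM, 0.78 in yolk sac, 0.81 in the E12.5 and 0.75 in the E14.5 liver. Both quantities come from the same libraries, so these correlations are descriptions.

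**Figure D2:**
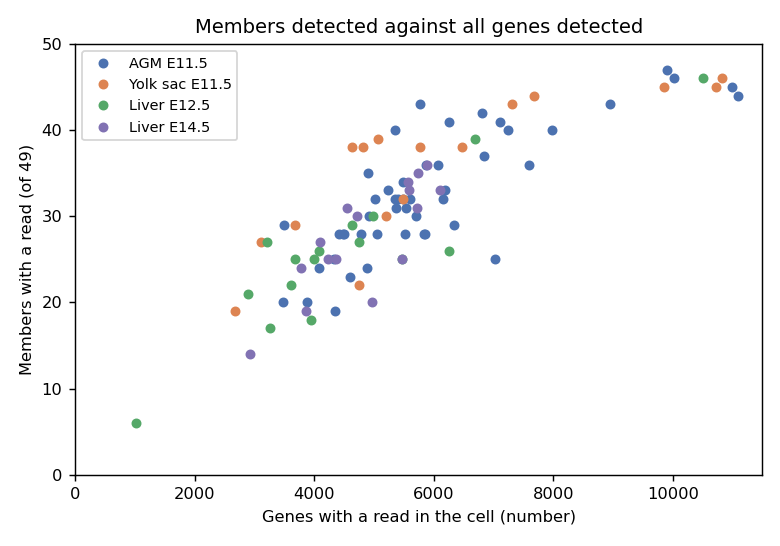
Each point is 1 cell, with the number of genes that had a read on the x axis and the number of the 49 members that had a read on the y axis, coloured by group. Cells with more genes had more members, and E12.5 cell 8 stands alone at 1011 genes and 6 members.

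By gene, 28 of 47 members had their highest pooled CPM in the yolk sac, where 19.4% of all genes had theirs. AGM held the highest value of 8 members, against 31.3% of all genes, E12.5 liver that of 6 (26.2%) and E14.5 liver that of 5 (23.1%). The lowest value fell in E14.5 liver for 17 members (24.1% of all genes), in E12.5 liver for 14 (28.9%), in AGM for 12 (16.3%) and in yolk sac for 4 (30.7%).

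**Figure D3:**
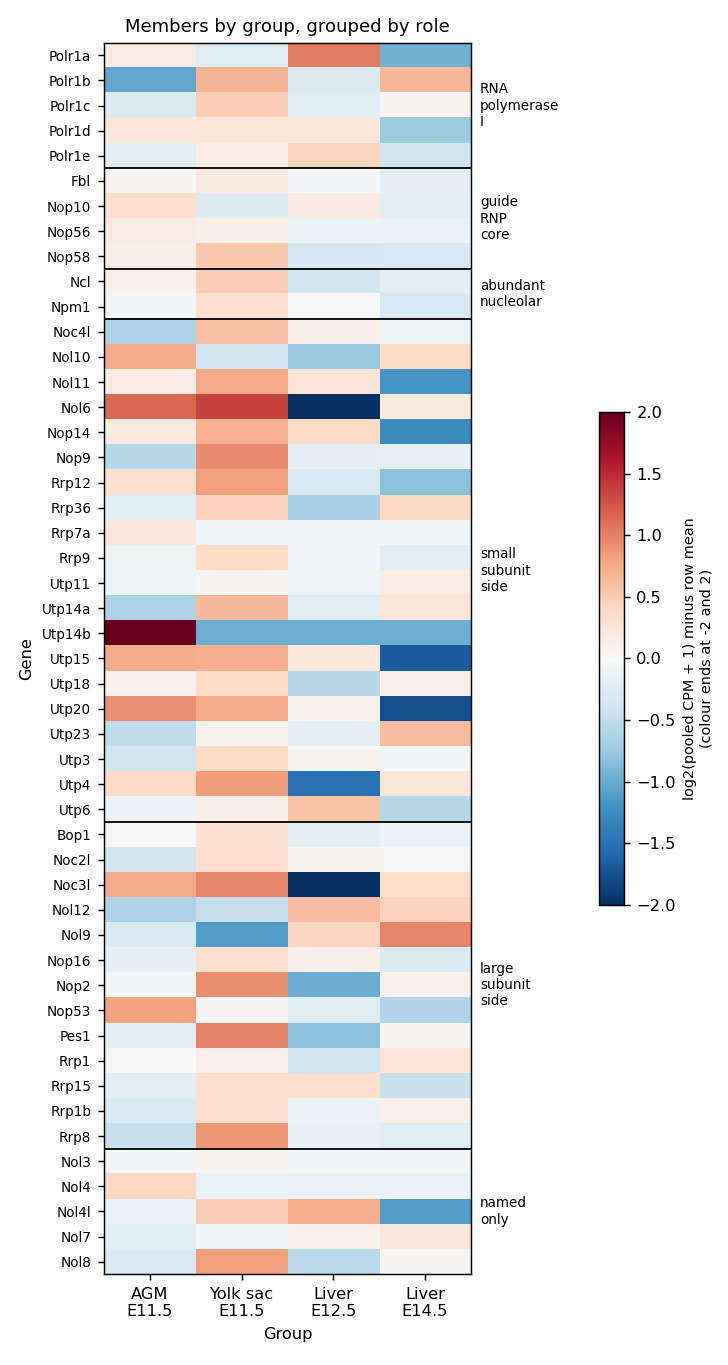
Rows are the 49 members grouped by role, columns are the 4 groups, and colour is log2(pooled CPM + 1) minus the mean of the row, cut at -2 and 2. Of 47 rows, 28 have their highest value in the yolk sac column. The darkest blue cells are Nol6 and Noc3l in E12.5 liver, and Utp14b is red in AGM only, where its 831 reads lie.

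Nucleophosmin and nucleolin were read in every cell. Npm1 (nucleophosmin, a histone and ribosome chaperone) was pooled at 2208 CPM in AGM, 2912 in yolk sac, 2293 in the E12.5 and 1819 in the E14.5 liver. Its lowest, median and highest cells were 558, 2187 and 3952 CPM in AGM and 1968, 2806 and 4393 CPM in yolk sac. They were 292, 2285 and 4148 CPM in E12.5 liver and 543, 1770 and 3712 CPM in E14.5 liver. Every cell had Npm1 reads and the groups overlapped, although the yolk sac lacked the low cells of the others. Npm1 has processed pseudogene copies, and how reads were shared among them is not given in the sources used here. Ncl (nucleolin, which binds nascent ribosomal RNA) was at 1251 CPM in AGM, 1649 in yolk sac, 915 in the E12.5 and 1009 in the E14.5 liver. Its median cell was at 1231, 1598, 867.7 and 938 CPM in the same order, so pooled and single-cell values ranked the groups alike. Both genes gave a log2 ratio of 0.40 for yolk sac over AGM, a level difference of under 2-fold.

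Per kilobase of coding length, the small protein Nop10 and Npm1 stood highest, at 3451 and 2521 CPM per kb in AGM. The next were Nop16 at 628, Polr1d at 616 and Ncl at 590 CPM per kb. The lowest members with reads in all 4 groups included Utp20 at 2.94 and Noc3l at 5.38 CPM per kb in AGM. Levels of members thus spanned a range of over 3 powers of 10 on this scale in AGM.

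None of the 4 members of the guide RNP core was 2-fold different between any of the pairs compared. Few well-detected genes were. Of those with a read in at least 50% of all cells, 2.78% to 9.32% were at least 2-fold higher, depending on the pair. At least 2-fold lower were 5.40% to 10.3%, so a lack of such members among 4 is no trait of the core. Fbl, the methyltransferase of the box C/D particle, had 174.4 CPM in AGM, 193.2 in yolk sac, 166.1 in the E12.5 and 148.6 in the E14.5 liver. Its lowest, median and highest cells were 0, 165.7 and 441 CPM in AGM, 85.8, 186.1 and 491 in yolk sac, 0, 161.1 and 413 in E12.5 liver, and 0, 156.3 and 263 in E14.5 liver. Fbl was read in 47 of 48 AGM cells, all 16 yolk sac cells and 14 of 16 cells of each liver group, so the cells overlapped almost fully. Nop56 was at 633, 610, 511 and 508 CPM in the same order of groups, and its partner Nop58 at 328, 440, 237 and 240 CPM. Nop10 was at 663, 433, 595 and 447 CPM, and was the core member with its lowest value in yolk sac. All 4 core members were lower in both liver groups than in AGM, with log2 ratios of -0.47 to -0.07 at E12.5 and -0.57 to -0.23 at E14.5, none of them 2-fold. Of genes with a read in at least 50% of all cells, 48.1% at E12.5 and 45.4% at E14.5 had a ratio above 0.

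Yolk sac and AGM pre-HSCs share age and gate, so this pair compares cells sorted alike from different tissues. Endothelial markers and proliferation genes also differed between these groups, as given below. The median log2 ratio of pooled CPM + 1 for yolk sac over AGM was 0.40 over the 47 members and -0.20 over all genes. It was above 0 for 37 members (78.7%), against 38.2% of all genes. At least 2-fold higher were 7 members (14.9%), against 8.61% of all genes, and at least 2-fold lower were 2 (4.26%), against 21%. Among genes with a read in at least 50% of all cells, 34 members had a median of 0.43 and all 4817 such genes a median of -0.00, with 30 members (88.2%) and 49.5% of those genes above 0. At least 2-fold higher were 17.65% of these members and 2.78% of these genes, and at least 2-fold lower 0% and 5.40%. The median was 0.46 for the 20 small subunit members and 0.49 for the 13 large subunit members, against 0.05 for the guide RNP core.

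Polr1b, the second largest subunit of RNA polymerase I (chr2:129100995-129126594 in GRCm38), was the member with the largest ratio. Its lowest, median and highest cells were 0, 0 and 215.9 CPM in AGM and 0, 69.6 and 303 CPM in yolk sac, with reads in 18 of 48 AGM and 12 of 16 yolk sac cells. Pooled, this was 22.2 CPM (21.02 to 23.4) against 75.3 CPM (71.8 to 79.0), a log2 ratio of 1.72. The cells overlapped, since both groups held cells with no read, and the difference lay in how many cells had the transcript as well as in the level. The catalytic partner Polr1a went the other way, at 37.2 CPM in AGM and 27.6 CPM in yolk sac (-0.42). Polr1c and Polr1d, the subunits shared with RNA polymerase III, were at 119 and 246 CPM in AGM and 204.1 and 250 CPM in yolk sac. Polr1e, another subunit of the enzyme, was at 54.3 and 70.4 CPM.

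Members of the small subunit side followed. Nop9, an RNA-binding factor needed for 18S processing, had lowest, median and highest cells of 0, 2.65 and 318 CPM in AGM and 0, 99.1 and 662 CPM in yolk sac. Pooled, 3096 reads in AGM (51.4 CPM, 49.6 to 53.2) stood beside 3301 reads from fewer cells in yolk sac, a log2 ratio in CPM of 1.51. Its exons overlap those of Cideb on the opposite strand over 29.9% of their length, and the strand setting of the counting is not given in the sources used here. Utp14a, a processome component, had 0, 13.98 and 190.6 CPM in AGM and 0, 54.6 and 272 CPM in yolk sac, with a log2 ratio of 1.28. Its exons overlap a gene on the opposite strand over 11.45% of their length. Noc4l, a partner of Nop14, had 0, 145.3 and 495 CPM in AGM and 0, 319 and 814 CPM in yolk sac, with a log2 ratio of 1.19. These 3 genes had higher medians in yolk sac, while the ranges of cells overlapped. Against AGM cells 1 to 16 alone, the log2 ratio was 1.69 for Nop9 and 1.32 for Noc4l but 0.76 for Utp14a, under 2-fold.

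On the large subunit side, Rrp8, a methyltransferase of 28S RNA, had cells of 0, 0 and 212.3 CPM in AGM and 0, 52.2 and 319 CPM in yolk sac, and a log2 ratio of 1.34. Pes1, of the complex with Bop1 and Wdr12, had cells of 0, 36 and 437 CPM in AGM and 0, 112 and 587 CPM in yolk sac. Its log2 ratio was 1.21, but 0.98 without yolk sac cell 15, 0.97 with CPM averaged over cells and 0.60 against AGM cells 1 to 16. Bop1 itself was at 214.1 and 266 CPM (log2 ratio 0.31), with a lower median cell in yolk sac (136 CPM) than in AGM (170 CPM). Nol8, outside the naming rule and chosen after its values were seen, completed the 7 members past 2-fold with 1.13, or 0.56 without yolk sac cell 10.

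The members lower in yolk sac were few. Nol10, a processome protein, had cells of 0, 0.828 and 332 CPM in AGM and 0, 0.321 and 86.2 CPM in yolk sac, and pooled values of 30.2 and 13.4 CPM. Its log2 ratio of -1.12 rested on single cells: it was -0.77 without AGM cell 46, -0.72 without AGM cell 47 and -1.75 without yolk sac cell 16. Utp14b, the retrogene copy of Utp14a, had 831 reads in 5 of 48 AGM cells and none in the 48 other cells. Set against a group floor of 3 reads, its pooled CPM in AGM was at least 102.5-fold that of yolk sac, 87.55-fold that of E12.5 liver and 94.59-fold that of E14.5 liver. These folds rest on reads of 5 cells, with 33.1% of the reads from 1 of them. The share of AGM cells with a read was 10.4% (3.47% to 22.7%). For 0 of 16 cells, as in each other group, the upper limit is 20.6%. The AGM share lies under that limit, so the shares of cells do not tell the groups apart. All 5 AGM cells with Utp14b reads also had Utp14a reads. Utp14b lies at chr1:78658038-78671512, where its exons overlap those of Acsl3 on the same strand over 3.18% of their length.

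Proliferation genes and markers of other cell types also differed between these groups. Of 24 proliferation genes, 22 had a log2 ratio above 0, with a median of 0.45, and their summed level per cell had a median of 5575 CPM in AGM (range 1106 to 12065) and 8500 CPM in yolk sac (2387 to 10712). All 8 endothelial markers were lower in yolk sac, with a median log2 ratio of -1.58, and their summed level ranged from 39.05 to 8285 CPM in AGM and from 0 to 1173 CPM in yolk sac cells. The 8 haematopoietic markers had a median log2 ratio of 0.07. Hepatocyte markers had 5 genes past the read minimum, of which 4 were at least 2-fold higher in yolk sac, at a summed level of at most 826 CPM in a cell. Their part in the members' difference was not tested.

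**Figure D4:**
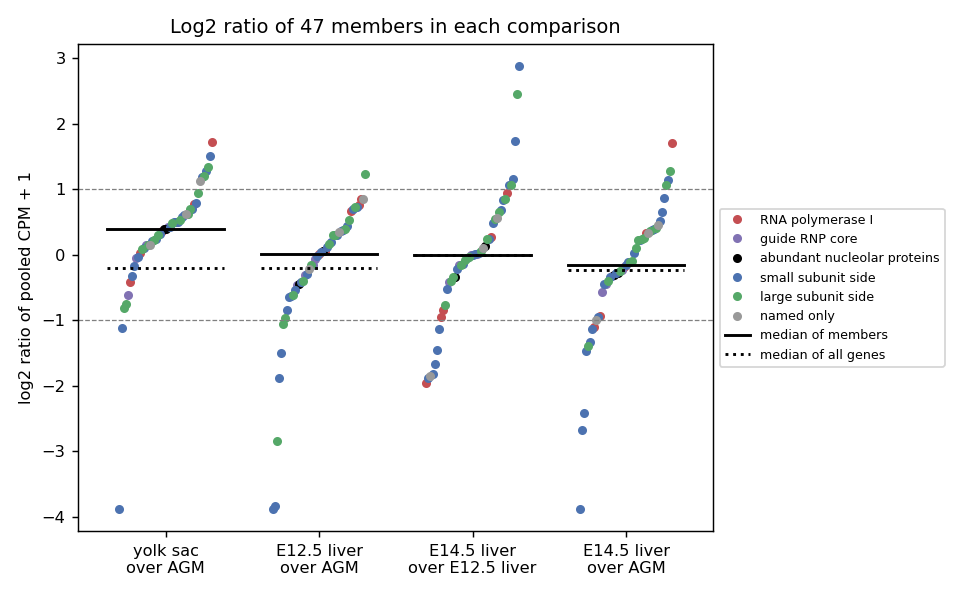
Each point is 1 of the 47 members, coloured by role and sorted within each comparison, with the log2 ratio of pooled CPM + 1 on the y axis; dashed grey lines mark 2-fold. The solid line is the median of the members and the dotted line the median of all genes: 0.40 and -0.20 in yolk sac over AGM, 0.02 and -0.20 in E12.5 liver over AGM, and close together in the others.

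In E12.5 liver HSCs the pooled level of the members was near that of AGM, and fewer cells had reads of most members, as of most genes. The median log2 ratio of E12.5 liver over AGM was 0.02 over members and -0.20 over all genes, with 24 members (51.1%) above 0 against 40.5% of all genes. Only 1 member was at least 2-fold higher (2.13%, against 15.6% of all genes) and 6 were at least 2-fold lower (12.8%, against 26%). Genes with a read in at least 50% of all cells lay closer together, with medians of 0.03 over 34 members and -0.03 over all 4817. Above 0 were 52.9% of these members and 48.1% of these genes. At least 2-fold higher were 2.94% and 7.12%, and at least 2-fold lower 5.88% and 10.3%. The share of cells with a read was lower in E12.5 liver for 38 of 47 members (80.9%), where 72.9% of all genes were lower. It was higher for 5, against 19.4% of all genes. The median difference in share was -12.5 percentage points over members and -6.25 points over all genes, and -10.8 and -5.53 points after thinning to 500000 reads.

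Markers of other cells differed in this comparison as well. Erythroid markers had a median log2 ratio of 4.01, with 6 of 8 at least 2-fold higher, and summed levels per cell of 35.7 to 10067 CPM at E12.5 and 0 to 561 CPM in AGM. Macrophage markers had a median of 3.998, with 4 of 5 at least 2-fold higher, and summed levels of 0 to 13667 and 0 to 278 CPM, while Adgre1 was at 0 in both groups. Endothelial markers had a median of -1.72, with 5 of 8 at least 2-fold lower, and summed levels of 0 to 2125 and 39.05 to 8285 CPM. Without E12.5 cell 8, the highest cell of the first 2 lists, the members' median was 0.04. The counts past 2-fold were then the same as with all cells (1 higher and 6 lower), given without the share of all genes in that run. These markers were not confined to cell 8. The median cell had summed erythroid markers of 547.5 CPM at E12.5 and 21.2 CPM in AGM, and macrophage markers of 23.2 and 0.265 CPM. The part of these markers in the members' values was not tested.

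The 5 RNA polymerase I genes had log2 ratios of 0.02 (Polr1d) to 0.85 (Polr1a), with a median of 0.67, and none was 2-fold. For 2 of them single cells set the direction. Polr1a had 67.7 CPM at E12.5 with 59.0% of the reads in cell 16, and 29.1 CPM without that cell, under the 37.2 CPM of AGM. Polr1b had 38.3 CPM with 80.4% of the reads in cell 4, and 8.22 CPM without it, under the 22.2 CPM of AGM. The log2 ratios were then -0.34 and -1.33. Polr1c (0.06) and Polr1d lay on either side of 0 depending on the cell left out, and Polr1e (0.67) kept its direction without any 1 cell. Polr1a was read in 5 of 16 E12.5 cells (31.3%, interval 11.02% to 58.7%) and 22 of 48 AGM cells (45.8%, 31.4% to 60.8%). With all cells, the pooled level of Polr1a was above AGM and its share of cells below it.

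Nol12, a nuclease-like factor of the large subunit pathway, was the 1 member past 2-fold upward. Its lowest, median and highest cells were 0, 46.8 and 348 CPM in AGM and 0, 152.2 and 378 CPM in E12.5 liver, and pooled values were 72.2 and 170.5 CPM (log2 ratio 1.23, or 0.99 with CPM averaged over cells). Reads were in 31 of 48 AGM cells and 11 of 16 E12.5 cells (64.6% and 68.8%). E14.5 liver was alike, with cells of 0, 138.5 and 494.5 CPM and 153.2 CPM pooled, a log2 ratio over AGM of 1.07. That value was 0.76 without E14.5 cell 11, 0.98 without cell 2 and 0.88 against AGM cells 1 to 16.

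The 6 lower members at E12.5 included 4 of the 20 small subunit members (20%, against 26% of all genes). Nol6, a processome scaffold protein, had cells of 0, 2.42 and 441 CPM in AGM and 0, 0 and 24.99 CPM in E12.5 liver, and pooled values of 38.1 CPM (36.5 to 39.7) and 1.73 CPM (1.19 to 2.43). Its log2 ratio was -3.84, and -4.76 without E12.5 cell 1, the source of 75.8% of its reads there. Utp4 (cirhin, of the t-UTP subcomplex that links the processome to transcription) had cells of 0, 135 and 1315 CPM in AGM and 0, 0 and 313 CPM in E12.5 liver. Reads of Utp4 were in 34 of 48 AGM and 6 of 16 E12.5 cells, and the log2 ratio was -1.89 (-2.71 without E12.5 cell 14). Nol10 had 10.1 CPM at E12.5 and a log2 ratio of -1.49 (-2.26 without E12.5 cell 2). Reads of these 3 genes were in 5, 6 and 5 of 16 E12.5 cells, all within the AGM range.

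Nop53, a large subunit factor that recruits the exosome, was lower in level, with reads in 47 of 48 AGM cells and in 14 and then 13 of the 16 cells at the liver stages. Its cells were 0, 382 and 2959 CPM in AGM, 138, 349 and 889 CPM in yolk sac, 0, 275 and 684 CPM in E12.5 liver, and 0, 237 and 502 CPM in E14.5 liver. Pooled values were 660, 391, 317 and 251 CPM in this order, and the log2 ratio over AGM was -1.06 for E12.5 and -1.39 for E14.5 liver. The E12.5 value was under 2-fold without any 1 of AGM cells 16, 19, 28 and 31 (-0.95, -0.98, -0.95 and -0.90) or of E12.5 cells 3, 11 and 15 (-0.97, -0.99 and -0.97), as it was with CPM averaged over cells (-0.98) or thinned reads (-0.92). Noc3l and Utp14b, outside the naming rule's conditions on ratios, made up the 6 members past 2-fold downward. Noc3l was at 13.02 CPM in AGM and 0.945 CPM in E12.5 liver, where all 18 reads lay in cell 1 (log2 ratio -2.85).

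Between the liver stages, members differed in both directions. Age and gate both changed in this comparison, so a difference cannot be assigned to stage alone. The median log2 ratio of E14.5 over E12.5 liver was 0.00 for members and for all genes, with 23 members above 0 (48.9%, against 40.8% of all genes) and 23 below. At least 2-fold higher were 6 members (12.8%, against 18.7% of all genes) and at least 2-fold lower were 7 (14.9%, against 18.2%). These shares were near or under those of all genes. For genes with a read in at least 50% of all cells, the median was -0.02 over 34 members and -0.07 over all 4817. At least 2-fold higher were 8.82% of these members and 9.32% of these genes, and at least 2-fold lower 8.82% and 8.55%. The share of cells with a read was higher at E14.5 for 24 members (51.1%, against 39.7% of all genes) and lower for 12 (25.5%, against 30.8%). After thinning to 500000 reads it was higher for 23 members (48.94%, against 39.02% of all genes) and lower for 20 (42.55%, against 43.05%). The median difference over members went from 6.25 to 0 percentage points, and that over all genes was 0 before and after thinning.

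Utp4 was the clearest of them. Its cells of 0, 0 and 313 CPM at E12.5 stood beside 0, 114 and 633 CPM at E14.5, with reads in 6 of 16 and 14 of 16 cells. Pooled values were 50.8 CPM (47.7 to 54.1) and 171.2 CPM, a log2 ratio of 1.73 (2.56 without E12.5 cell 14). The E14.5 level was close to the 190.8 CPM of AGM. Nol6 was at 19.1 CPM at E14.5, with 94.2% of these reads from cell 4, and it, Noc3l and Nol10 were other members past 2-fold upward (2.88, 2.46 and 1.16). Each rested on 1 E14.5 cell: without cell 4 Nol6 was at 1.23 CPM (log2 ratio -0.29), without cell 13 Nol10 was at 8.69 CPM (-0.19), and without cell 9 Noc3l was at 2.22 CPM (0.73). Reads of each were in 2 of 16 E14.5 cells, and the E14.5 level moved by 9.02, 2.55 and 3.32 times. Nop2, the 28S cytosine methyltransferase whose promoter is shown above, had cells of 0, 0 and 384 CPM at E12.5 and 0, 27.9 and 745 CPM at E14.5, with reads in 5 and 10 of 16 cells. Its log2 ratio of 1.07 ranged from 0.69 (without E14.5 cell 4) to 1.90 (without E12.5 cell 2), and was under 2-fold without any 1 of 11 cells. Rrp36, an early processome factor, had cells of 0, 0 and 321 CPM at E12.5 and 0, 87.8 and 311 CPM at E14.5. Its log2 ratio of 1.07 ranged from 0.81 (without E14.5 cell 9) to 2.55 (without E12.5 cell 4), also with 11 cells that each brought it under 2-fold.

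In the other direction, Utp6 had cells of 0, 5.41 and 862 CPM at E12.5 and 0, 0 and 175.4 CPM at E14.5. Its log2 ratio was -1.14, and -0.61 or -0.66 without E12.5 cell 10 or 16, and -0.81 without the 4 E14.5 cells with globin reads. The rest of the lower members had under 50% of E12.5 cells with a read. They were Polr1a (-1.96), Utp15 (-1.88), Nol4l (-1.84), Utp20 (-1.83), Nop14 (-1.67) and Nol11 (-1.45), given after their values were seen because the naming rule left them out. Without 1 E12.5 cell, 4 of these 6 were under 2-fold: Polr1a at -0.77 (cell 16), Nol4l at -0.66 (cell 12), Utp20 at -0.68 (cell 10) and Nol11 at -0.596 (cell 15). Utp15 and Nop14 stayed past it without any 1 cell. Single E14.5 cells also carried the low levels, since Polr1a fell from 16.7 to 0 CPM without cell 12 and Utp15 from 9.62 to 0 CPM without cell 6. Of the 13 members past 2-fold between the liver stages, only Utp4, Utp15 and Nop14 stayed so whichever cell was left out. The proliferation list stood at a median log2 ratio of 0.59 in this comparison, with 16 of 24 genes above 0. Erythroid markers had a median of 5.71, with 7 of 8 at least 2-fold higher and 1 lower. Macrophage markers had a median of -1.78, with 3 of 5 at least 2-fold lower. Summed per cell, the medians went the other way. They were 547.5 (E12.5) and 245.9 CPM (E14.5) for erythroid and 23.2 and 66.8 CPM for macrophage markers. The part of these lists in the members' values was not tested.

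Against AGM, E14.5 liver had a median log2 ratio of -0.15 over members and -0.23 over all genes. Above 0 were 20 members (42.6%), against 39.7% of all genes. At least 2-fold higher were 4 members (8.51%, against 15.3% of all genes), and at least 2-fold lower were 8 (17.02%, against 25.3%). For genes with a read in at least 50% of all cells, the median was -0.10 over 34 members and -0.07 over all 4817. Above 0 were 47.1% of these members and 45.4% of these genes. At least 2-fold higher were 2.94% and 6.25%, and at least 2-fold lower 8.82% and 9.47%. The share of cells with a read was lower for 31 of 47 members, against 67.9% of all genes, and higher for 11, against 22.7%. This comparison shares its AGM cells with both comparisons above.

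Polr1b was again the highest ratio, with 22.2 CPM in AGM and 74.6 CPM in E14.5 liver (log2 ratio 1.70), near its yolk sac level of 75.3 CPM. Its E14.5 cells were 0, 0.886 and 410 CPM, with reads in 8 of 16, so fewer cells carried the pooled level than in yolk sac. Nol9, a polynucleotide kinase of 28S maturation, had cells of 0, 0 and 239 CPM in AGM and 0, 11.1 and 296 CPM at E14.5. Its log2 ratio was 1.27, and 0.94 without E14.5 cell 10. Nol9 had its lowest level in yolk sac, at 16.4 CPM, with no cell above 48.2 CPM.

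The 8 lower members at E14.5 included 6 of the 20 small subunit members (30%, against 25.3% of all genes), a share near that of all genes. Utp20, a large scaffold protein, had cells of 0, 4.69 and 221.2 CPM in AGM and 0, 0 and 36.9 CPM at E14.5, with reads in 31 of 48 and 2 of 16 cells. Pooled, this was 24.6 CPM (23.3 to 25.9) against 3.01 CPM (2.31 to 3.86), a log2 ratio of -2.67 (-4.17 without E14.5 cell 15). Utp15, of the t-UTP subcomplex like Utp4, was read in 26 of 48 AGM cells but in 1 of 16 E14.5 cells (6.25%, 0.158% to 30.2%). Its cells were 0, 5.46 and 472 CPM and 0, 0 and 201.8 CPM, and its log2 ratio was -2.42, or -5.82 without E14.5 cell 6, when no reads were left. Nop14, the partner of Noc4l, had cells of 0, 31.1 and 437 CPM in AGM and 0, 0 and 165.2 CPM at E14.5 (log2 ratio -1.47). Nol11, also of the t-UTP subcomplex, had cells of 0, 44.6 and 153.9 CPM in AGM and 0, 0 and 147.4 CPM at E14.5 (log2 ratio -1.33, or -2.44 without E14.5 cell 15). The members of the t-UTP subcomplex thus did not share a profile: at E14.5 Utp4 was read in 14 of 16 cells, Nol11 in 5 and Utp15 in 1. Outside the naming rule, Utp23 was the other member past 2-fold upward (1.15, or 0.91 without E14.5 cell 9), and its exons overlap an opposite-strand gene over 11.53% of their length. Rrp12 (-1.14), Polr1a (-1.11) and Utp14b were the others downward. Rrp12 was under 2-fold when any 1 of 3 cells was left out and Polr1a when any 1 of 7 was, and without the 4 globin-rich cells they were at -0.82 and -0.78.

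Without the 4 E14.5 cells with globin reads, each of the 8 values named for E14.5 over AGM kept its direction and stayed past 2-fold. The log2 ratios were then 1.46 for Polr1b, 1.59 for Nol9, 1.24 for Nol12, -2.10 for Utp15, -1.14 for Nop14, -1.06 for Nol11, -2.41 for Utp20 and -1.44 for Nop53. Erythroid markers, of which 7 of 8 were at least 2-fold higher at E14.5 than in AGM, ranged in summed level from 0 to 561 CPM in AGM cells and from 13.9 to 227508 CPM in E14.5 cells. The 24 proliferation genes had a median log2 ratio of 0.71 over AGM, with 22 above 0, while the members had -0.15. Endothelial markers were lower for 8 of 8 genes (median -3.30). The part of these cells and markers in the members' values was not tested.

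A list of other genes of the pathway, not matched by the name rule, was measured beside the members. Of 81 such genes past the read minimum, 60 were above 0 in yolk sac over AGM, with a median log2 ratio of 0.40, the same as for the members. Their median was -0.13 in E12.5 liver over AGM (33 above 0), 0.13 in E14.5 over E12.5 liver (49 above 0) and 0.06 in E14.5 liver over AGM (45 above 0). At least 2-fold higher in yolk sac were 6 of them (7.41%, against 8.61% of all genes) and lower 3 (3.70%, against 21%). In E12.5 liver over AGM these were 6 (7.41%, against 15.6%) and 11 (13.6%, against 26%). Between the liver stages they were 13 (16.05%, against 18.7%) and 5 (6.17%, against 18.2%), and in E14.5 liver over AGM 5 (6.17%, against 15.3%) and 7 (8.64%, against 25.3%). Each of these shares was under that of all genes, but some lay above that of well-detected genes. Of all genes with a read in at least 50% of all cells, 2.78%, 7.12%, 9.32% and 6.25% were at least 2-fold higher, in the order given. At least 2-fold lower were 5.40%, 10.3%, 8.55% and 9.47%. The pathway genes were not held to that minimum of cells.

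Among them, Rrn3, the initiation factor of RNA polymerase I, had 11.3 CPM in AGM and 37.7 CPM in yolk sac (log2 ratio 1.65, or 0.94 without yolk sac cell 10). Rrs1, a factor of 5S RNA incorporation, had 25.4 and 73.6 CPM (1.499). Tcof1 (treacle) had 60.4 and 127 CPM (1.07, or 0.57, 0.88 and 0.88 without yolk sac cells 4, 10 and 15). Pdcd11 was lower in yolk sac, at 25.8 and 9.06 CPM (-1.41, or -2.27 without yolk sac cell 1). In the E12.5 liver, the helicase Ddx21 stood at 7.56 CPM against 68.9 CPM in AGM (-3.03, or -3.63 without E12.5 cell 9) and at 53.0 CPM at E14.5 (2.66 over E12.5, or 3.26 without that cell). Cells with Ddx21 reads numbered 40 of 48 in AGM, 14 of 16 in yolk sac, and 10 and 11 of 16 at the liver stages.

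The GTPase Bms1 was at 40.6 CPM in AGM and 3.57 CPM at E12.5 (-3.18, or -4.23 without E12.5 cell 1). Nat10, the 18S acetyltransferase, was at 38.9 CPM in AGM and 7.24 CPM at E12.5 (-2.28, or -3.93 without E12.5 cell 5). It was at 10.3 CPM at E14.5 (-1.82 over AGM, or -3.57 without E14.5 cell 1). Dcaf13, of the small subunit, was at 223.8 CPM at E12.5 and 90.0 CPM in AGM (1.31). Taf1b, of the polymerase I selectivity factor, was just past 2-fold (1.02), with 74.4 CPM against 36.2 CPM, and under it without any 1 of 29 cells. Between the liver stages, Wdr36 had 24.8 and 95.4 CPM (1.90) and Pno1 had 30.97 and 88.7 CPM (1.49), while Pelp1 had 13.1 and 5.25 CPM (-1.18, or -0.75 without E12.5 cell 3) and was at 23.3 CPM in AGM (-1.96 for E14.5 over AGM). Heatr1, a t-UTP member, was at 43.98 CPM in AGM and 13.6 CPM at E14.5 (-1.62, or -4.17 without E14.5 cell 4), and Las1l, a nuclease of the large subunit, at 56.8 and 127 CPM (1.14, or 0.90 and 0.88 without E14.5 cells 9 and 12). Krr1, of the small subunit, was at 33.96 and 72.5 CPM (1.07, or 0.88, 0.54, 0.99 and 0.99 without E14.5 cells 4, 5, 10 and 14).

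Myc was set against the members as a known regulator of such genes. Its lowest, median and highest cells were 0, 95.5 and 808 CPM in AGM, 0, 110 and 488 CPM in yolk sac, 0, 1.21 and 934 CPM in E12.5 liver, and 0, 0.386 and 605 CPM in E14.5 liver. Pooled values were 162.2 CPM in AGM, 159.5 in yolk sac, between 188.8 and 201.4 (interval) at E12.5 and 119 at E14.5, or 76.3 without E14.5 cell 11. Cells with reads numbered 39 of 48, 13 of 16, 9 of 16 and 8 of 16. The pooled Myc levels of AGM and yolk sac lay within counting error of each other (upper limits 165.4 and 164.8 CPM), while the members were higher in yolk sac. Mycn, its relative, was at 51.8 CPM in AGM, 91.1 in yolk sac, 91.3 in the E12.5 and 138 in the E14.5 liver. Mycl was read in 3 AGM cells and in none of the 48 others.

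Across cells of a group, the module mean had a Pearson r with Myc (both as log2 values) of 0.38 in AGM, 0.58 in yolk sac, 0.33 in the E12.5 and 0.41 in the E14.5 liver. Spearman's rho was 0.35, 0.27, 0.23 and 0.42. The points share library, depth and detection, and the values are descriptions over 48, 16, 16 and 16 cells. The yolk sac value rested on few cells: the 3 cells without Myc reads had module means of 2.17, 3.64 and 4.19, and r was 0.40 without cell 8. Given the number of genes detected, the partial r was 0.34 in AGM, 0.36 in yolk sac, 0.01 in the E12.5 and 0.37 in the E14.5 liver. Without the 2 cells farthest from the median of Myc, r was 0.38, 0.28, 0.55 and 0.49.

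**Figure D5:**
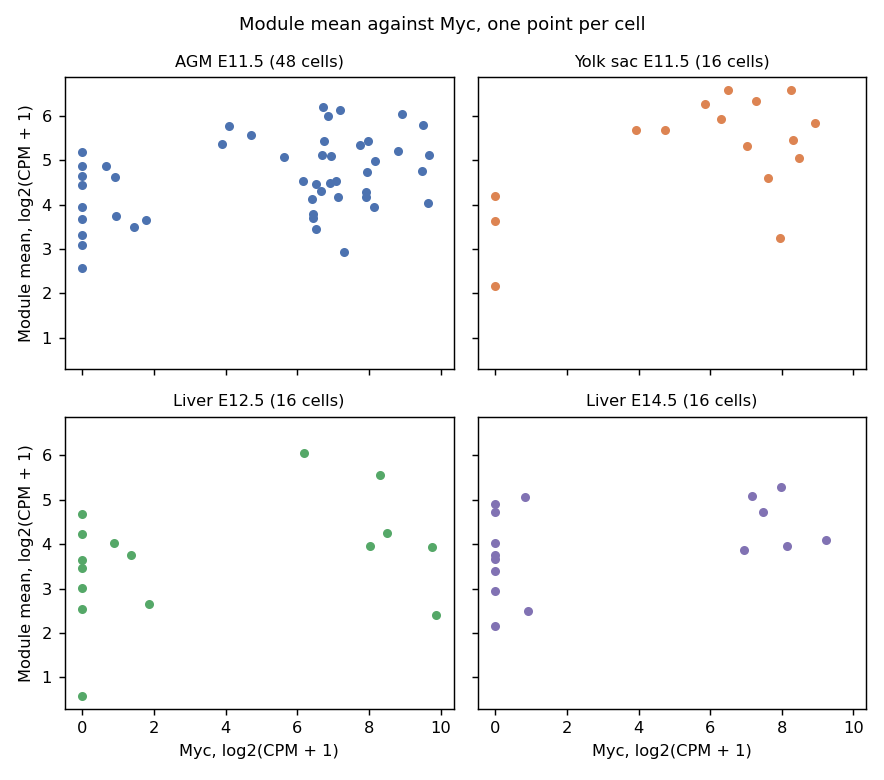
Each point is 1 cell of the group named above the panel, with log2(CPM + 1) of Myc on the x axis and the module mean on the y axis. Cells without a Myc read line up at 0; the cloud slopes upward in each panel, with r of 0.38, 0.58, 0.33 and 0.41, and scatters widely.

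The rank of Myc among genes with reads in 50% or more of a group puts these values beside those of other genes. Its rho with the module mean lay above that of 91.9% of 5306 genes in AGM, 49.9% of 5949 in yolk sac, with 55.7% of 3793 for E12.5 and 83.5% of 4364 for E14.5 liver. In yolk sac and E12.5 liver the value was near that of the median gene. Mycn had an r of 0.05, 0.40, 0.52 and 0.06 in the 4 groups. The mean of the proliferation list had an r with the module mean of 0.46, 0.82, 0.64 and 0.41, and the mean of 80 cytosolic ribosomal protein genes one of -0.28, -0.46, 0.21 and 0.14.

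Gene by gene, 31 of 37 members read in at least 50% of AGM cells had a rho with Myc above 0 (83.8%), against 57.9% of all such genes. The counts were 28 of 44 in yolk sac (63.6%, against 65.7%), 17 of 25 in E12.5 liver (68.0%, against 62.8%) and 21 of 32 in E14.5 liver (65.6%, against 57.6%). The highest in AGM were Utp4 (rho 0.54), Nol6 (0.39) and Fbl (0.38), and the lowest was Nol10 (-0.18). Utp4 had a rho of -0.06 in yolk sac and 0.21 in E14.5 liver, and Fbl one of -0.34, 0.17 and 0.19 in yolk sac, E12.5 and E14.5 liver. Ncl was at 0.31, 0.32, 0.31 and -0.04 over the 4 groups, and Npm1 at 0.25, 0.16, -0.12 and 0.24. Of the members with an E-box before the start, Nol11 had a rho of 0.36, Nop2 of 0.17, Utp18 of 0.15 and Rrp7a of 0.01 in AGM. In yolk sac these were 0.18, -0.13, 0.29 and 0.65, and in E14.5 liver Nop2 was at 0.30, Utp18 at -0.10 and Rrp7a at -0.08, so for the last 3 the sign differed between groups.

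Members varied with one another only loosely from cell to cell. Over pairs of members with reads in 50% or more of the cells, the median rho was 0.08 in AGM (666 pairs), 0.12 in yolk sac (946), with 0.15 for E12.5 (300) and 0.12 for E14.5 liver (496). Over pairs of all such genes it was 0.02, 0.07, 0.07 and 0.02. The partners Nop56 and Nop58 had a rho of 0.37, 0.21, 0.23 and 0.74 in the 4 groups, and Npm1 and Ncl one of 0.20, 0.66, 0.36 and 0.39. The related pair Rrp1 and Rrp1b had 427 and 32.9 CPM in AGM, 453 and 51.2 in yolk sac, 325 and 36.9 in E12.5 liver, and 512 and 43.9 in E14.5 liver. Their rho was 0.00, 0.20, 0.12 and 0.04. Polr1c and Polr1d, which form a heterodimer, had a rho of -0.07, 0.40, 0.09 and 0.55.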

How the data were processed

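The deposited table gives unnormalised whole-number read counts, genes in rows and the 96 cells in columns. FastQC, Trimmomatic 0.36, STAR, HTSeq and the build mm10 are named in the submitters' processing notes; the annotation and the strand setting are not given in the sources used here. SMART-Seq cDNA was fragmented by a transposome and amplified, per the labels' protocols. All columns were matched to cells by name. Rows with the same symbol (113 of 19949) were summed.

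Reads were pooled per group and scaled to CPM; ratios are log2 after adding 1 CPM, a scale that understates the change of low genes. Pooled CPM has exact Poisson intervals and shares of cells exact Clopper-Pearson intervals. Cells needed 1000 genes, which removed 0. Each well was sorted to hold 1 cell, and no doublet caller was run. For the folds of Utp14b alone, a floor of 3 reads over a group replaced 0. The log2 ratios kept 0 reads as 0 CPM before 1 CPM was added. Coding lengths and overlaps came from GENCODE M21 (GRCm38), which held all 49 members.

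Each group was 1 sample, so no test was made. The members and lists were chosen with earlier results of these data known. Named were Myc, Ncl, Npm1 and Fbl; per comparison, up to 6 members and 3 other pathway genes per direction that were at least 2-fold, with a read in 50% of the cells of the higher group and at most 50% of its reads from 1 cell; the 3 members with the highest rho with Myc in AGM; members at 0 or under the minimum; and related pairs. Alternatives were other scalings, the mean of each cell's CPM, 10 CPM added, thinning to 500000 reads, other minimums, cells left out, and other forms of the module mean and correlation; those for the module mean per cell were chosen after seeing the data. The pooling code was run on simulated Poisson counts with a shared profile for all cells. Reads concentrated in single cells, as in these data, were not part of that simulation. Python 3.11.15, numpy 2.4.6, scipy 1.17.1 and pandas 2.3.3 were used.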

Additional observations from a re-analysis of the deposited data

How the results depend on the processing

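No paired analysis was possible because cell numbers are all that groups have in common, and nothing was tested. Of the ratios past 2-fold, 2 turned when 1 cell was left out: in E14.5 over E12.5 liver, Nol6 ranged from -0.29 (without E14.5 cell 4) to 3.80 (without E12.5 cell 1) and Nol10 from -0.19 (without E14.5 cell 13) to 1.92 (without E12.5 cell 2). No other alternative run turned such a ratio. The median log2 ratio of members for yolk sac over AGM was 0.49 with median-of-ratios scaling and 0.50 with AGM cells 1 to 16 only, and that of E12.5 liver over AGM was -0.074 when CPM was averaged over cells and -0.11 with AGM cells 1 to 16. Counts of members past 2-fold in this section stand without the share of all genes in the same run. They do not show a change particular to the members. Members at least 2-fold higher in E12.5 liver over AGM numbered 2 when CPM was averaged over cells, 3 with thinned reads and 5 with AGM cells 1 to 16, against 1. With 10 CPM added, those higher in E14.5 over E12.5 liver were 2 in place of 6, those higher in E14.5 liver over AGM 2 in place of 4, and those lower in yolk sac 1 in place of 2. Of the named members, Nol10 in yolk sac over AGM (-0.78), Nop2 (0.99), Rrp36 (0.92) and Utp6 (-0.996) in E14.5 over E12.5 liver, and Nol12 in E14.5 liver over AGM (0.99) were then under 2-fold, as were Nol8 in yolk sac over AGM (0.92), Noc3l (0.85), Nol10 (0.75) and Utp20 (-0.84) in E14.5 over E12.5 liver, and Polr1a (-0.82), Rrp12 (-0.81) and Utp23 (0.89) in E14.5 liver over AGM. Against AGM cells 1 to 16, Nol8 was at 0.4984 and, of the other pathway genes, Pdcd11 at -0.73 in yolk sac, Dcaf13 at 0.95 and Taf1b at 0.35 in E12.5 liver, and Las1l at 0.97 and Krr1 at 0.94 in E14.5 liver. Without the 4 globin-rich E14.5 cells, Nol10 in E14.5 over E12.5 liver was at 0.035 and Pelp1 at -0.97. With that addition the median module mean was 5.93 in AGM, 5.56 in E12.5 and 5.59 in E14.5 liver, since the added value lifts every gene. The Myc correlation in yolk sac was 0.46 with 10 CPM added, 0.43 with summed CPM, 0.36 as a partial correlation, 0.28 without the 2 farthest cells and 0.46 over all 96 cells. In E12.5 liver it was 0.18 with summed CPM, 0.012 as a partial correlation, 0.55 without the 2 farthest cells and 0.46 over all 96 cells.

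When single cells were left out, the median log2 ratio ranged from 0.35 to 0.46 for yolk sac over AGM, -0.12 to 0.056 for E12.5 liver over AGM, -0.12 to 0.11 for E14.5 over E12.5 liver and -0.26 to -0.036 for E14.5 liver over AGM. Counts at least 2-fold higher ranged from 7 to 9, 1 to 2, 4 to 9 and 2 to 4, and lower from 1 to 3, 5 to 8, 5 to 8 and 7 to 9. The Myc correlation ranged from 0.33 to 0.42 in AGM, 0.40 to 0.73 in yolk sac, 0.23 to 0.50 in E12.5 and 0.32 to 0.49 in E14.5 liver. Groups of 16 cells and reads concentrated in single cells limit every value.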
